A study of Mus musculus with 8 samples.

Results

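Transcript levels of 38 interferon-induced genes were followed in 8 RNA-sequencing libraries of mouse tumour organoids, cultures in which epithelial cells grow as small multicellular bodies. The genes were chosen by symbol from the 45777 genes counted, and all 38 were found. They encode 4 sensors of foreign or displaced nucleic acid, 4 transcription factors, 5 members of the oligoadenylate synthetase (OAS) family and 4 IFIT proteins. Also encoded are the ubiquitin-like protein ISG15 with its protease USP18, and 11 proteins grouped here as Mx and other antiviral effectors. The rest are 3 proteins of the PARP9 group, 2 guanylate-binding proteins (GBP) and 3 further interferon-induced (IFI) proteins. The labels describe every line as an organoid of hepatocellular carcinoma related to metabolic steatohepatitis (MASH), with the genotype label WT.

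The resistant group held 1 library each of SNU-6625 and SNU-6624 cultures labelled lenvatinib-resistant, which carry the control label for treatment. The lenvatinib group held 1 library each of SNU-6625 and SNU-6624 organoids treated with lenvatinib, an inhibitor of several receptor tyrosine kinases. The parental group held 1 library each of SNU-6622, SNU-6625, SNU-6624 and SNU-6621, with the control label. Dose, duration, the age of the animals and the way resistance was obtained are not given in the labels. Each line is a single organoid line, and nothing in the labels states that libraries came from separate cultures or animals. The p-values here therefore reflect only how far these libraries differ. Their spread comes partly from how unlike SNU-6625 and SNU-6624 changed between groups, with 1 library of each line a group. The other part is an estimate of that spread shared over all the genes fitted. Unlike responses of the lines and technical spread cannot be told apart in it.

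Interferons are secreted proteins that cells release on sensing viral or displaced nucleic acid. Type I interferons bind a receptor made of Ifnar1 and Ifnar2, whose kinases Jak1 and Tyk2 activate Stat2. Stat2 joins Irf9 in a factor that binds the interferon-stimulated response element (ISRE) in the promoters of such genes. Type II interferon acts through Ifngr1 and Ifngr2 on genes with gamma-activated sites. In liver epithelium the programme is best known from viral infection, where its products bind, cut or block viral RNA and hold back viral assembly.

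The ISRE was visible in the promoters of many of the genes. RefSeq promoters (build GRCm38.p6, the assembly mm10 is made from) from 250 bases before to 50 bases after the start were at hand for 28 of the 38 genes, and those of the other 10 were not used here. The ISRE core, which reads GAAA, any 2 bases and GAAA, was searched on both strands and lay in 15 of 28 genes (53.57%), against 3.993% of the 27025 genes of the table. At least 2 matches, which may overlap, lay in 7 of 28 genes (25%), against 0.2664% of all genes. The gamma-activated site TTCNNNGAA lay in 6 of 28 genes (21.43%), against 9.554% of all genes, and in 1 promoter, that of Bst2, its match overlapped an ISRE core match. The promoters of 6 of the 7 genes with at least 2 ISRE core matches are shown 5′ to 3′ on the strand of the gene, with the matched bases in capitals, because they carry the element most densely. The seventh is that of Bst2, left out after its values were seen because its level in SNU-6622 stood least above the other lines. All matches shown lie before the start, and those of Isg15, Oas1a and Gbp3 overlap within the promoter.
Isg15 (chr4:156200769-156201068, minus strand): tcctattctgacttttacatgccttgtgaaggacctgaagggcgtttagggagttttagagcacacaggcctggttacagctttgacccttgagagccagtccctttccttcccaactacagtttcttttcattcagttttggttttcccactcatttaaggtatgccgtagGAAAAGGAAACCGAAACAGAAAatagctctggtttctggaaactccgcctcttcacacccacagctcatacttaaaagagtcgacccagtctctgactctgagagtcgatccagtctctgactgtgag
Oas1a (chr5:120907476-120907775, minus strand): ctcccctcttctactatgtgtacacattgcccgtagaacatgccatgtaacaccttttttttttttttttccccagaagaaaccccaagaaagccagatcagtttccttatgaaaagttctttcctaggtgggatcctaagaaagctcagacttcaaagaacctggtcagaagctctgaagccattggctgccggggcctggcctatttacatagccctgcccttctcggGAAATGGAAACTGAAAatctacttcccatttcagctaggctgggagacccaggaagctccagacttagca
Gbp3 (chr3:142559794-142560093, plus strand): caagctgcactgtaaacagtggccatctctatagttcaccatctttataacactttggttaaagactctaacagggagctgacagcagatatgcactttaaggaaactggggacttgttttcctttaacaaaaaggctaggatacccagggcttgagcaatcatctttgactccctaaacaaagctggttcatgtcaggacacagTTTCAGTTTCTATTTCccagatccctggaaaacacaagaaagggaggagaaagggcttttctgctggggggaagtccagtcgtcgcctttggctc
Ifit1 (chr19:34640639-34640938, plus strand): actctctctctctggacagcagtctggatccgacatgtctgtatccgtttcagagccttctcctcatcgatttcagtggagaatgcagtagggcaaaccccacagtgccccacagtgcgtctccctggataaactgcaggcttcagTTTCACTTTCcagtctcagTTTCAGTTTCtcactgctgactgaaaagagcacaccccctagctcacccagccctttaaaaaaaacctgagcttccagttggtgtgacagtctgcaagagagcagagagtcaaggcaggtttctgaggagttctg
Ifit3 (chr19:34583279-34583578, plus strand): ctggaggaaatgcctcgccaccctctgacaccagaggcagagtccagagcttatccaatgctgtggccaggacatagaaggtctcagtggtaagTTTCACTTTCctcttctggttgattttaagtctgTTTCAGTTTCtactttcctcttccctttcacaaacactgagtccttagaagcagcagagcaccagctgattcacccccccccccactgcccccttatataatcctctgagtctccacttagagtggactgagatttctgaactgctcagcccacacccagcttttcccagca
Ifit3b (chr19:34607707-34608006, plus strand): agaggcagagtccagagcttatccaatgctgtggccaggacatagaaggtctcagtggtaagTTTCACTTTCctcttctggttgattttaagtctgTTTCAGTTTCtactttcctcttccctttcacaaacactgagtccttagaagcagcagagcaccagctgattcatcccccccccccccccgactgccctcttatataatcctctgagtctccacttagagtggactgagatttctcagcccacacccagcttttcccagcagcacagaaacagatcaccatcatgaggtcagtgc
The Ifit3 and Ifit3b promoters share an unbroken run of 169 bases that holds both matches. The Ifit1 and Ifit3 promoters, which lie on the same stretch of chromosome 19, share no run longer than 13 bases. Of the 38 genes, 17 lay within 100 kb of another of them: the 4 Ifit genes, Oas2 with Oas3, Oasl1 with Oasl2, Mx1 with Mx2, Rsad2 with Cmpk2, Gbp2 with Gbp3, and Parp9 with Parp14 and Dtx3l.

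Each library held between 49.0 and 61.0 megacounts. The floor for a gene with 0 counts was taken as 3 counts, or 0.0492 to 0.0612 CPM by library, which allows for counting error alone. It was not put in place of any value, and 0 counts are given as 0. Levels are counts per megacount of the library (CPM) after TMM scaling over the 8 libraries, with scaling factors from 0.872 (resistant SNU-6625) to 1.09. In bulk libraries, fewer cells of a type and less RNA per cell cannot be told apart. The labelled epithelium was checked against its markers: Epcam, Cdh1, Krt7, Krt8, Krt18 and Krt19 summed to 22773 and 17924 CPM in the resistant, 4367 and 4182 CPM in the lenvatinib and 9353 to 13005 CPM in the 4 parental libraries, with SNU-6625 before SNU-6624 here and in each later pair. Of 5 hepatocyte markers, Alb and Serpina1a had 0 counts in all 8 libraries, and the highest level of any was 43.8 CPM, that of Cyp2e1 in SNU-6621. Of 10 leukocyte and macrophage genes, 5 had 0 counts throughout: Ptprc, Adgre1, Lyz2, Fcgr1 and Tyrobp. That list still summed to 47.3 CPM (lenvatinib SNU-6625) to 178 CPM (resistant SNU-6625), nearly all of it from Cd14 and Cd68. Counts were also 0 throughout for 2 of 5 plasmacytoid dendritic cell genes (Siglech and Ccr9). The same held for 4 of 7 lymphocyte, 2 of 4 endothelial and 4 of 6 fibroblast genes. The plasmacytoid dendritic list summed to 41.1 and 37.1 CPM in resistant, 37.8 and 25.3 CPM in lenvatinib and 29.4 to 108 CPM in the 4 parental libraries, and held Bst2, itself 1 of the 38, Tcf4 at 6.43 to 15.7 CPM, and 1 further gene at up to 12.1 CPM.

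**Figure D1:**
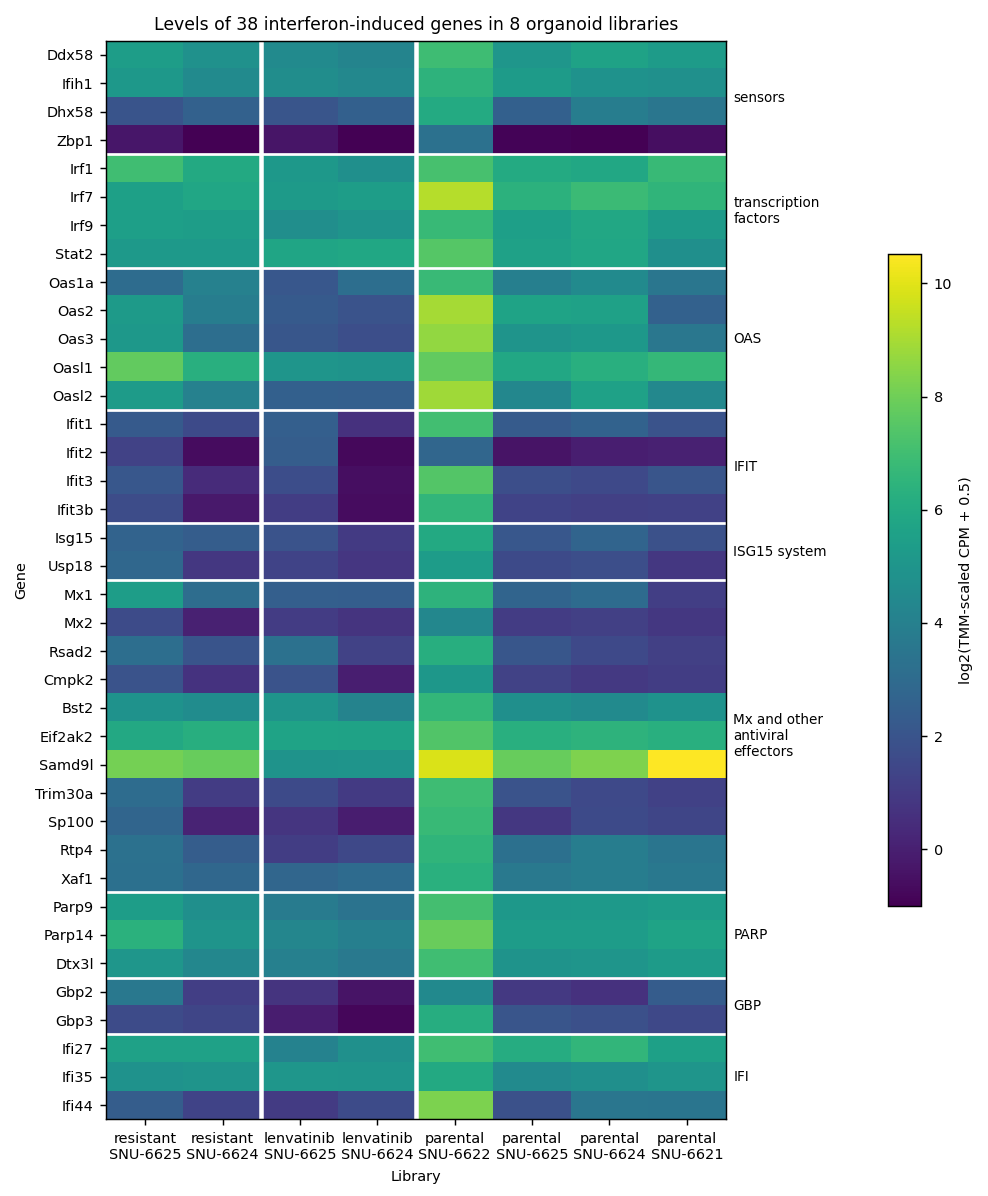
Levels of the 38 genes (rows, grouped by role) in the 8 libraries (columns: resistant, lenvatinib and parental), as colour on the scale log2(TMM-scaled CPM + 0.5). Among the parental libraries, SNU-6622 was highest for 37 of the 38 genes, against 20.5% of all genes with at least 1 CPM there. Both lenvatinib libraries lay below both parental libraries of the same lines for 26 of the 38, against 36.5% of all genes tested.

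Among the untreated parental lines, SNU-6622 stood apart. It had the highest level of 37 of the 38 genes, where 20.5% of the 14488 genes with at least 1 CPM in a parental line were highest in it. The level in SNU-6622 was at least 2-fold above the next parental line, with at least 1 CPM, for 32 of 38 genes, against a background of 1.82% (263 of 14488 genes). No other line passed that fold for any of the 38 genes, with backgrounds of 1.3% for SNU-6625, 0.573% for SNU-6624 and 8.45% for SNU-6621. The fold over the next line had a median of 6.03, and was 10 or more for 16 genes. Each line had 1 parental library, so these differences have no replicate check and are given as a description.

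The summed level of the 38 genes was 6403 CPM in SNU-6622, 1082 CPM in SNU-6625, 1342 CPM in SNU-6624 and 2333 CPM in SNU-6621. Without Samd9l, which alone held 1464 CPM in SNU-6621, the sums were 5465, 855, 1026 and 869.7 CPM in the same order. Per kilobase of exon, the median gene had 29.7 CPM per kb in SNU-6622 and 4.22 CPM per kb on the mean of the other 3 lines, and 33 genes reached 10 CPM per kb in SNU-6622 against 8 in the other lines. In the other 3 lines the highest level was less than 2-fold above the lowest for 23 of the 38 genes and 2-fold or more above it for 15. The share over all genes was not computed for these counts. Among them the order changed from gene to gene: the lowest of the 4 lines was SNU-6625 for 14 genes (background 25.7%), SNU-6624 for 8 (19.0%) and SNU-6621 for 16 (34.5%). The leukocyte and macrophage markers summed to 168 CPM in SNU-6622 and 57.3 to 78.3 CPM in the other parental lines, nearly all of it from Cd14 and Cd68, and the other 8 markers of that list to 1.68 CPM in SNU-6622 and 0.666 to 1.94 CPM in the others. Their part in the levels was not tested.

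**Figure D2:**
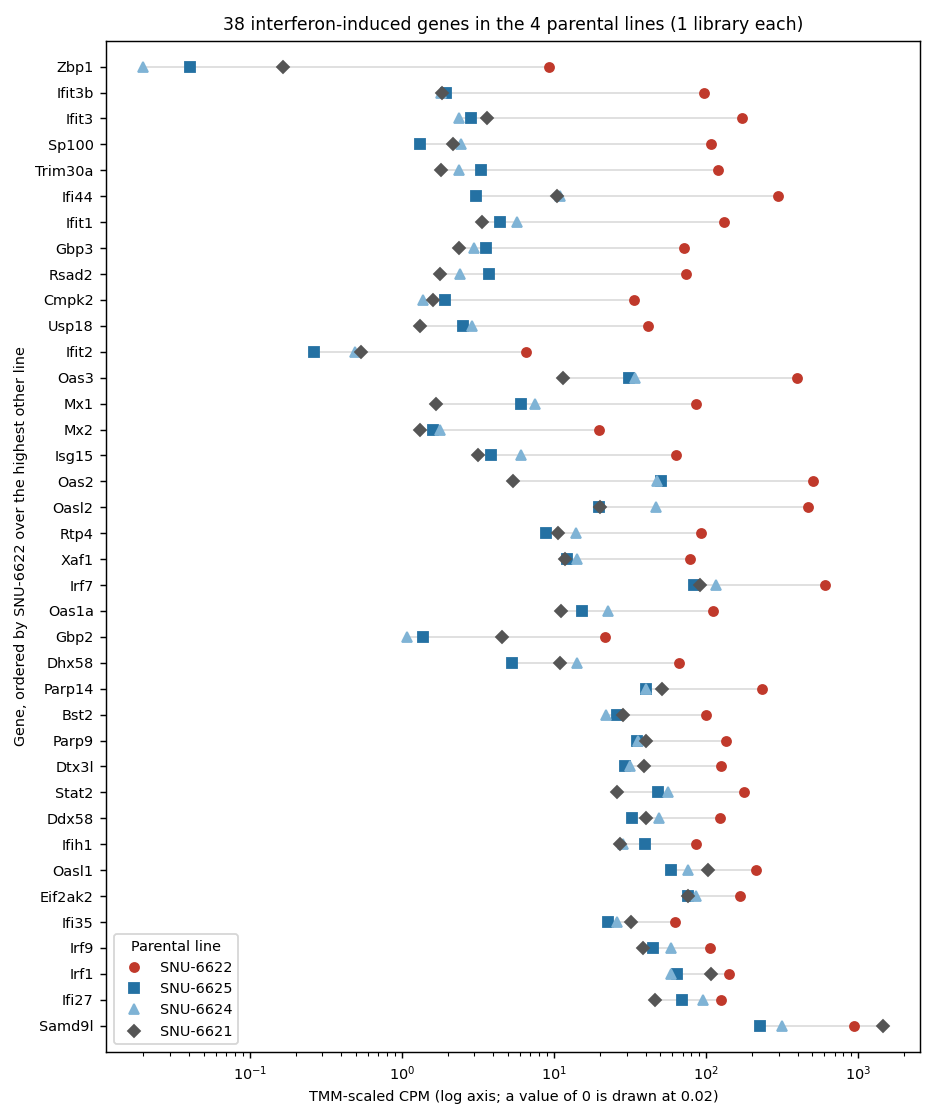
Levels of the 38 genes in the 4 parental lines, 1 library each, as TMM-scaled CPM on a log axis, with genes ordered by the ratio of SNU-6622 to the highest of the other lines. SNU-6622 lies to the right of the other lines for every gene except Samd9l, by 56.1-fold for Zbp1 at the top and 1.31-fold for Irf1 and Ifi27 near the bottom.

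All 4 sensor genes passed 2-fold in SNU-6622. Ddx58, which encodes the RNA sensor RIG-I, had 123 CPM in SNU-6622, against 32.6 CPM in SNU-6625, 48.9 CPM in SNU-6624 and 40.0 CPM in SNU-6621. Its relative Ifih1, encoding MDA5, had 86.4 CPM in SNU-6622, against 39.6 CPM in SNU-6625, 28.4 CPM in SNU-6624 and 27.3 CPM in SNU-6621. Dhx58, the regulator LGP2, had 65.9 CPM in SNU-6622, against 5.29 CPM in SNU-6625, 14.2 CPM in SNU-6624 and 10.9 CPM in SNU-6621. The RNA sensors were thus measured in all 4 lines and highest in SNU-6622, while Zbp1, a sensor of Z-form nucleic acid, had 9.33 CPM in SNU-6622 and at most 0.166 CPM in the other lines, with 0 counts in SNU-6624.

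Of the transcription factor genes, Irf7 and Stat2 passed 2-fold and Irf1 and Irf9 did not. Irf7, which drives the later wave of interferon synthesis, had 602 CPM in SNU-6622, against 83.3 CPM in SNU-6625, 116 CPM in SNU-6624 and 91.0 CPM in SNU-6621. Stat2, a subunit of the ISRE-binding factor, had 179 CPM in SNU-6622, against 48.3 CPM in SNU-6625, 56.0 CPM in SNU-6624 and 26.0 CPM in SNU-6621. Irf1, which also answers to type II interferon, had 141 CPM in SNU-6622, against 64.5 CPM in SNU-6625, 58.7 CPM in SNU-6624 and 107 CPM in SNU-6621. The Irf9 level was 106 CPM in SNU-6622 and 38.3 to 58.5 CPM in the other lines.

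The OAS family, most of whose enzymes make the oligoadenylates that switch on RNase L, passed 2-fold for all 5 genes. Oas2 had 503 CPM in SNU-6622, against 50.3 CPM in SNU-6625, 47.8 CPM in SNU-6624 and 5.41 CPM in SNU-6621. The Oas3 values were 396 CPM in SNU-6622, against 30.9 CPM in SNU-6625, 34.2 CPM in SNU-6624 and 11.4 CPM in SNU-6621. For Oas1a they were 111 CPM in SNU-6622, against 15.2 CPM in SNU-6625, 22.6 CPM in SNU-6624 and 11.1 CPM in SNU-6621. SNU-6622 was 4.89-fold to 11.6-fold above the next line for these 3 synthetases, and SNU-6621 was the lowest of the 4. Oasl2 had 466 CPM in SNU-6622, against 19.8 CPM in SNU-6625, 47.1 CPM in SNU-6624 and 20.2 CPM in SNU-6621. Oasl1, known in mice as a brake on Irf7 translation, stood out least, with 213 CPM in SNU-6622, against 58.7 CPM in SNU-6625, 76.4 CPM in SNU-6624 and 103 CPM in SNU-6621.

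The IFIT genes, whose products bind viral RNA ends, were 12.2-fold to 49.1-fold above the next line in SNU-6622. Ifit3 had 173 CPM in SNU-6622, against 2.87 CPM in SNU-6625, 2.39 CPM in SNU-6624 and 3.62 CPM in SNU-6621. For Ifit3b the levels were 96.2 CPM in SNU-6622, against 1.96 CPM in SNU-6625, 1.80 CPM in SNU-6624 and 1.83 CPM in SNU-6621. Of the 50-base stretches of their transcripts, 51.24% (of Ifit3) and 44.54% (of Ifit3b) occur in the other gene of the pair, so reads may be split between them and their values are uncertain. Ifit1 had 131 CPM in SNU-6622, against 4.38 CPM in SNU-6625, 5.72 CPM in SNU-6624 and 3.38 CPM in SNU-6621. Ifit2 was low in every line, at 6.53 CPM in SNU-6622 and 0.262 to 0.536 CPM in the others.

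Isg15, the ubiquitin-like modifier, had 63.6 CPM in SNU-6622, against 3.88 CPM in SNU-6625, 6.03 CPM in SNU-6624 and 3.16 CPM in SNU-6621. Usp18, which removes ISG15 and damps the type I receptor, had 41.3 CPM in SNU-6622, against 2.504 CPM in SNU-6625, 2.88 CPM in SNU-6624 and 1.31 CPM in SNU-6621. Both were more than 10-fold above the next line.

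Among the 11 antiviral effectors, 9 passed 2-fold. The dynamin-like GTPase gene Mx1 had 85.6 CPM in SNU-6622, against 6.10 CPM in SNU-6625, 7.54 CPM in SNU-6624 and 1.68 CPM in SNU-6621. Rsad2, encoding viperin, had 74.1 CPM in SNU-6622, against 3.72 CPM in SNU-6625, 2.41 CPM in SNU-6624 and 1.77 CPM in SNU-6621. Its neighbour Cmpk2, a nucleotide kinase, had 33.7 CPM in SNU-6622, against 1.92 CPM in SNU-6625, 1.38 CPM in SNU-6624 and 1.61 CPM in SNU-6621. SNU-6622 was 11.35-fold to 19.9-fold above the next line for these 3 genes, and Mx2 was at 19.6 CPM in SNU-6622 and 1.31 to 1.77 CPM in the others. Trim30a, a TRIM family protein, had 120.5 CPM in SNU-6622, against 3.33 CPM in SNU-6625, 2.37 CPM in SNU-6624 and 1.81 CPM in SNU-6621. The nuclear body gene Sp100 had 107 CPM in SNU-6622, against 1.31 CPM in SNU-6625, 2.46 CPM in SNU-6624 and 2.16 CPM in SNU-6621. Rtp4, a negative regulator of interferon signalling in mice, had 91.9 CPM in SNU-6622, against 8.90 CPM in SNU-6625, 14.1 CPM in SNU-6624 and 10.6 CPM in SNU-6621. Separation was widest for Trim30a and Sp100, with low levels in the other 3 lines. Xaf1, which counters the apoptosis inhibitor XIAP, had 77.9 CPM in SNU-6622, against 12.2 CPM in SNU-6625, 14.1 CPM in SNU-6624 and 11.8 CPM in SNU-6621. Bst2, the tether of budding virions and also a plasmacytoid dendritic cell marker, had 99.4 CPM in SNU-6622, against 25.8 CPM in SNU-6625, 22.03 CPM in SNU-6624 and 28.6 CPM in SNU-6621. Eif2ak2, the RNA-activated kinase PKR, did not pass, with 167 CPM in SNU-6622 and 75.8 to 85.3 CPM in the others. Samd9l, a growth-restraining antiviral protein, was the exception to the order of lines, with 938 CPM in SNU-6622, against 227 CPM in SNU-6625, 316 CPM in SNU-6624 and 1464 CPM in SNU-6621. It was also the gene with the highest level per kilobase over the 8 libraries, 80.9 CPM per kb, ahead of Ifi27 at 40.5 CPM per kb. Rtp4, Sp100, Ifit1, Mx2 and Trim30a share 13.65%, 10.2%, 7.135%, 6.715% and 6.529% of their 50-base stretches with any other gene, so a small part of their counts is uncertain.

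The 3 genes of the PARP9 group were highest in SNU-6622, with SNU-6621 next. Parp9, an ADP-ribosyltransferase family protein, had 134 CPM in SNU-6622, against 35.2 CPM in SNU-6625, 35.4 CPM in SNU-6624 and 40.3 CPM in SNU-6621. Dtx3l, the ubiquitin ligase that binds PARP9, had 126 CPM in SNU-6622, against 29.3 CPM in SNU-6625, 31.8 CPM in SNU-6624 and 39.3 CPM in SNU-6621. Parp14 had 235 CPM in SNU-6622, against 40.4 CPM in SNU-6625, 40.1 CPM in SNU-6624 and 51.4 CPM in SNU-6621. All 3 were 3.21-fold to 4.56-fold above the next line. Exons of Parp9 and Dtx3l overlap by 458 bases on opposite strands, and no source used here gives the strand setting of the counting. Reads of that stretch cannot be told apart. Gbp2, a GTPase that attacks pathogen vacuoles, had 21.7 CPM in SNU-6622, against 1.37 CPM in SNU-6625, 1.08 CPM in SNU-6624 and 4.55 CPM in SNU-6621. Gbp3 had 72.0 CPM in SNU-6622, against 3.55 CPM in SNU-6625, 2.98 CPM in SNU-6624 and 2.37 CPM in SNU-6621. Of the IFI genes, Ifi44 had 299 CPM in SNU-6622, against 3.07 CPM in SNU-6625, 10.96 CPM in SNU-6624 and 10.5 CPM in SNU-6621. Ifi27, a mitochondrial and nuclear membrane protein, did not pass 2-fold, with 125 CPM in SNU-6622, against 69.5 CPM in SNU-6625, 95.9 CPM in SNU-6624 and 45.9 CPM in SNU-6621. Ifi35 was at 62.8 CPM in SNU-6622 and 22.5 to 32.1 CPM in the others.

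By number of ISRE core matches, the 7 genes with at least 2 had a median of 20.9-fold in SNU-6622 over the mean of the other 3 lines, on the CPM + 0.5 scale, against 5.65-fold for the 8 genes with 1 match and 5.94-fold for the 13 with none. The 10 genes with no promoter at hand had a median of 8.79-fold. The groups overlap widely, Bst2 among the genes with at least 2 matches lying below both other medians, and no test was run. Of the 7, Ifit3 and Ifit3b share a 169-base promoter run and part of their transcript sequence, so they are not independent.

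Upstream of these genes, the ligands were almost absent. Of 21 interferon genes, 13 had 0 counts in all 8 libraries, 17 had at most 3 counts in any library, and only Ifne, the epithelial interferon epsilon gene, passed the filter on low counts. Ifne had 7.09 CPM in SNU-6622, against 3.92 CPM in SNU-6625, 2.12 CPM in SNU-6624 and 1.29 CPM in SNU-6621. All 6 receptor subunit genes were measured, and none was 2-fold highest in SNU-6622: Ifnar1 had 41.4 CPM in SNU-6622 and 36.8 to 53.8 CPM in the other lines. Of 15 nucleic acid sensing genes with at least 1 CPM, 6 did, among them the STING gene Tmem173, at 77.7 CPM in SNU-6622 and 22.6 to 37.6 CPM in the others. Of 69 further interferon-induced genes with at least 1 CPM, 43 passed (62.32%). These 43 and the 32 made up 75 of the 263 genes past the fold (28.52%).

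Lenvatinib-treated organoids had less transcript of 6 interferon-induced genes than parental organoids of the same lines. In SNU-6625 and SNU-6624, 6 of 38 genes were called down and 0 up by edgeR's quasi-likelihood test at an adjusted p under 0.05, against a background of 4.08% down and 1.7% up (5.78% of 17038 genes in all). The 6 were Irf7, Oas1a, Oas2, Samd9l, Parp9 and Ifi27. The median log2 fold change of the 38 genes was -1.09, against -0.01 over all genes, and 33 of the 38 lay below 0. The median was -0.49 without parental SNU-6624 and -1.51 without parental SNU-6625. At an unadjusted p under 0.05, 19 of the 38 were down and 1 up, against 17.2% and 14.6% of all genes (31.8% in all).

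Samd9l (chromosome 6, 3372257 to 3399571, mm10) fell most in absolute level among the 6. It had 278 and 230.3 CPM in resistant, 29.4 and 30.8 CPM in lenvatinib and 227 and 316 CPM in parental libraries. The lenvatinib libraries lay below both other groups, and the log2 fold change of lenvatinib against parental was -3.15 with an SE of 0.25 (edgeR adjusted p = 0.0305). Oas2 (chromosome 5, 120730333 to 120749886) had 38.6 and 14.2 CPM in resistant, 4.25 and 3.34 CPM in lenvatinib and 50.3 and 47.8 CPM in parental libraries. Its log2 fold change was -3.71 with an SE of 0.41 (edgeR adjusted p = 0.0371), and both lenvatinib values lay below all others. Oas1a (chromosome 5, 120896256 to 120907544) had 7.81 and 16.3 CPM in resistant, 3.81 and 8.36 CPM in lenvatinib and 15.2 and 22.6 CPM in parental libraries. Lenvatinib and resistant values overlapped for this gene, and lenvatinib against parental gave -1.71 with an SE of 0.26 (edgeR adjusted p = 0.0446). Without line as a block the call was lost (edgeR adjusted p = 0.130; over all alternatives the adjusted p ran from 4.98e-06 to 0.328). Oas1a shares 57.57% of its 50-base stretches with Oas1g, so its count is uncertain.

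Irf7 (chromosome 7, 141263183 to 141266499) had 46.3 and 55.7 CPM in resistant, 38.2 and 41.5 CPM in lenvatinib and 83.3 and 116 CPM in parental libraries. Lenvatinib values were the lowest in both lines, at -1.29 with an SE of 0.15 (edgeR adjusted p = 0.0371). Parp9 (chromosome 16, 35938470 to 35972621) had 42.1 and 26.2 CPM in resistant, 13.3 and 9.81 CPM in lenvatinib and 35.2 and 35.4 CPM in parental libraries. The resistant values bracketed the parental ones, and lenvatinib against parental gave -1.62 with an SE of 0.22 (edgeR adjusted p = 0.0422). Ifi27 (chromosome 12, 103434189 to 103440245) had 47.8 and 47.5 CPM in resistant, 16.7 and 27.0 CPM in lenvatinib and 69.5 and 95.9 CPM in parental libraries, with no overlap between any of the groups. Its log2 fold change was -1.92 with an SE of 0.22 (edgeR adjusted p = 0.0371).

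**Figure D3:**
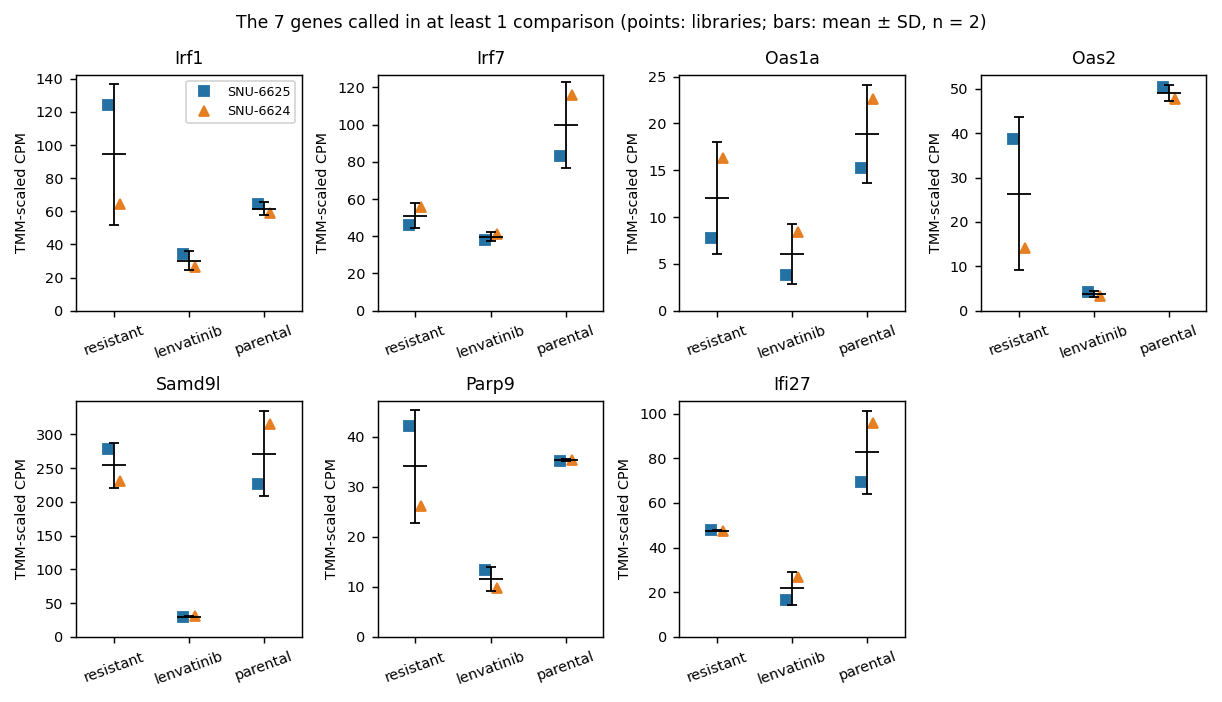
TMM-scaled CPM of the 7 genes called in at least 1 comparison, by group (resistant, lenvatinib, parental). Points are libraries of SNU-6625 (squares) and SNU-6624 (triangles), and bars are the mean ± SD (n = 2). Lenvatinib libraries lie lowest in every panel, though those of Oas1a overlap the resistant range.

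The 32 genes not called included several with larger fitted changes. Gbp3 had 2.61 and 2.18 CPM in resistant, 0.440 and 0.0678 CPM in lenvatinib and 3.55 and 2.98 CPM in parental libraries. Lenvatinib against parental gave -3.91 with an SE of 0.77 (edgeR adjusted p = 0.061) in log2. Its lenvatinib values rest on 26 and 4 counts, the lower one near the floor. For Oas3 the values were 34.3 and 8.38 CPM in resistant, 3.70 and 2.95 CPM in lenvatinib and 30.9 and 34.2 CPM in parental libraries, and the log2 fold change was -3.34 with an SE of 0.61 (edgeR adjusted p = 0.0556). Oasl2 had 38.9 and 16.3 CPM in resistant, 5.28 and 5.08 CPM in lenvatinib and 19.8 and 47.1 CPM in parental libraries. Both lenvatinib libraries lay below both parental libraries for 26 of the 38 genes, against 36.5% of all genes, and above both for 1, Ifi35, against 35.7%. By role, the median log2 fold change was -2.68 for the 5 OAS genes (2 called), -2.55 for the 2 GBP genes (0 called), -1.68 for the 3 IFI genes (1 called), -1.42 for the 4 IFIT genes (0 called), -1.27 for the 3 PARP9 group genes (1 called), -0.98 for Isg15 and Usp18 (0 called), -0.95 for the 4 transcription factors (1 called), -0.78 for the 4 sensors (0 called) and -0.59 for the 11 effectors (1 called).

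Several IFIT and other effector genes had unlike lenvatinib values in the lines. Ifit1 had 4.28 and 2.52 CPM in resistant, 5.16 and 1.07 CPM in lenvatinib and 4.38 and 5.72 CPM in parental libraries. The low lenvatinib value was that of SNU-6624. Ifit3 showed the same picture, with 3.93 and 0.846 CPM in resistant, 2.84 and 0.169 CPM in lenvatinib and 2.87 and 2.39 CPM in parental libraries. Ifit3b had 2.69 and 0.374 CPM in resistant, 1.66 and 0.153 CPM in lenvatinib and 1.96 and 1.80 CPM in parental libraries. The values in lenvatinib SNU-6624 rest on 10 counts of Ifit3 and 9 of Ifit3b. Reads may be split between these genes, so they are not separate observations. For Rsad2, the levels were 8.34 and 3.44 CPM in resistant, 9.37 and 1.92 CPM in lenvatinib and 3.72 and 2.41 CPM in parental libraries. Its neighbour Cmpk2 had 3.32 and 1.12 CPM in resistant, 3.35 and 0.475 CPM in lenvatinib and 1.92 and 1.38 CPM in parental libraries. In SNU-6625 the lenvatinib level of Rsad2 and Cmpk2 was above the parental level, and in SNU-6624 below it. Ifit2 had 4.80 CPM in lenvatinib against 0.262 CPM in parental SNU-6625, and 0.102 CPM (6 counts) in lenvatinib against 0.488 CPM in parental SNU-6624. Lenvatinib levels were at least 2-fold below parental for 23 of 38 genes in SNU-6624 (background 13.9%) and 11 in SNU-6625 (background 13.4%), on the CPM + 0.5 scale. They were at least 2-fold above parental for 2 genes in SNU-6625, Ifit2 and Rsad2 (background 5.49%), and 0 in SNU-6624 (background 4.67%). Ifit1, Ifit2, Rsad2, Cmpk2 and Bst2 were lower in SNU-6624 and higher in SNU-6625, 5 genes against 8.54% of all genes, and 0 showed the opposite pattern, against 6.96%. With 1 library a condition in each line, the difference between lines was not tested.

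The remaining genes had these values. Bst2 had 28.9 and 23.9 CPM in resistant, 30.8 and 17.4 CPM in lenvatinib and 25.8 and 22.03 CPM in parental libraries. Stat2 had 37.4 and 36.7 CPM in resistant, 53.3 and 58.3 CPM in lenvatinib and 48.3 and 56.0 CPM in parental libraries. Mx1 had 42.2 and 8.09 CPM in resistant, 5.08 and 4.97 CPM in lenvatinib and 6.10 and 7.54 CPM in parental libraries. The lenvatinib values spanned the parental ones for Bst2, overlapped them for Stat2 and lay below them for Mx1, with log2 fold changes of -0.02, 0.11 and -0.46, none called. Ddx58 had 42.6 and 28.2 CPM in resistant, 22.4 and 17.6 CPM in lenvatinib and 32.6 and 48.9 CPM in parental libraries. Ifih1 had 34.2 and 22.1 CPM in resistant, 24.8 and 20.2 CPM in lenvatinib and 39.6 and 28.4 CPM in parental libraries, and Dhx58 had 3.46 and 5.45 CPM in resistant, 3.57 and 5.32 CPM in lenvatinib and 5.29 and 14.2 CPM in parental libraries. These RNA sensors gave log2 fold changes of -1.03, -0.56 and -0.997, below parental in both lines and not called. Eif2ak2, Irf9, Ifi35, Mx2 and Zbp1 were not called either, at -0.67, -0.87, 0.42, -0.35 and 2.60. The Zbp1 value had an SE of 1.63 and rests on at most 17 counts in any of the 6 libraries, with 0 in SNU-6624.

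Of the genes outside the 38, 7 of 69 tested interferon-induced genes were called down and 0 up, with a median of -0.92. Among those called were Uba7, Isg20, Apol9a, Lgals3bp, Trim14 and Plac8. The ISG15-activating enzyme gene Uba7 had a log2 fold change of -1.79. The signalling inhibitor gene Socs3 was called down (-1.17), and of 6 receptor genes 0 were called. Of 15 sensing genes 2 were called down, Tmem173 (-4.33) and the RIG-I ubiquitin ligase gene Trim25 (-1.02). Epithelial markers summed to 4367 and 4182 CPM after lenvatinib, against 11196 and 10591 CPM in parental libraries, with 1 of 6 called down, Krt19, and their part in the result was not tested. Leaving out either lenvatinib or either parental library left 1 library in that group. Calls from those fits cannot show whether single libraries carried the 6 calls. Over the 15 alternatives, which include those fits, log2 fold changes ran from -3.41 to -2.86 for Samd9l and -4.07 to -3.26 for Oas2. They ran from -2.18 to -1.715 for Ifi27, -1.43 to -1.16 for Irf7, -1.885 to -1.34 for Parp9 and -1.98 to -1.43 for Oas1a. With resistant SNU-6625 or resistant SNU-6624 left out, the median log2 fold change of the 38 genes was -1.02 and -1.03. The resistant library that remained then had a group term of its own. Both fits thus drew their spread from the lenvatinib and parental libraries alone, like a fit of only those groups, and are not separate checks. Without scaling beyond library size 6 of the 38 were called down, 5 of them the same, beside 5.77% of all genes. Of all calls in that fit 43.4% were up, against 29.3% with TMM.

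**Figure D4:**
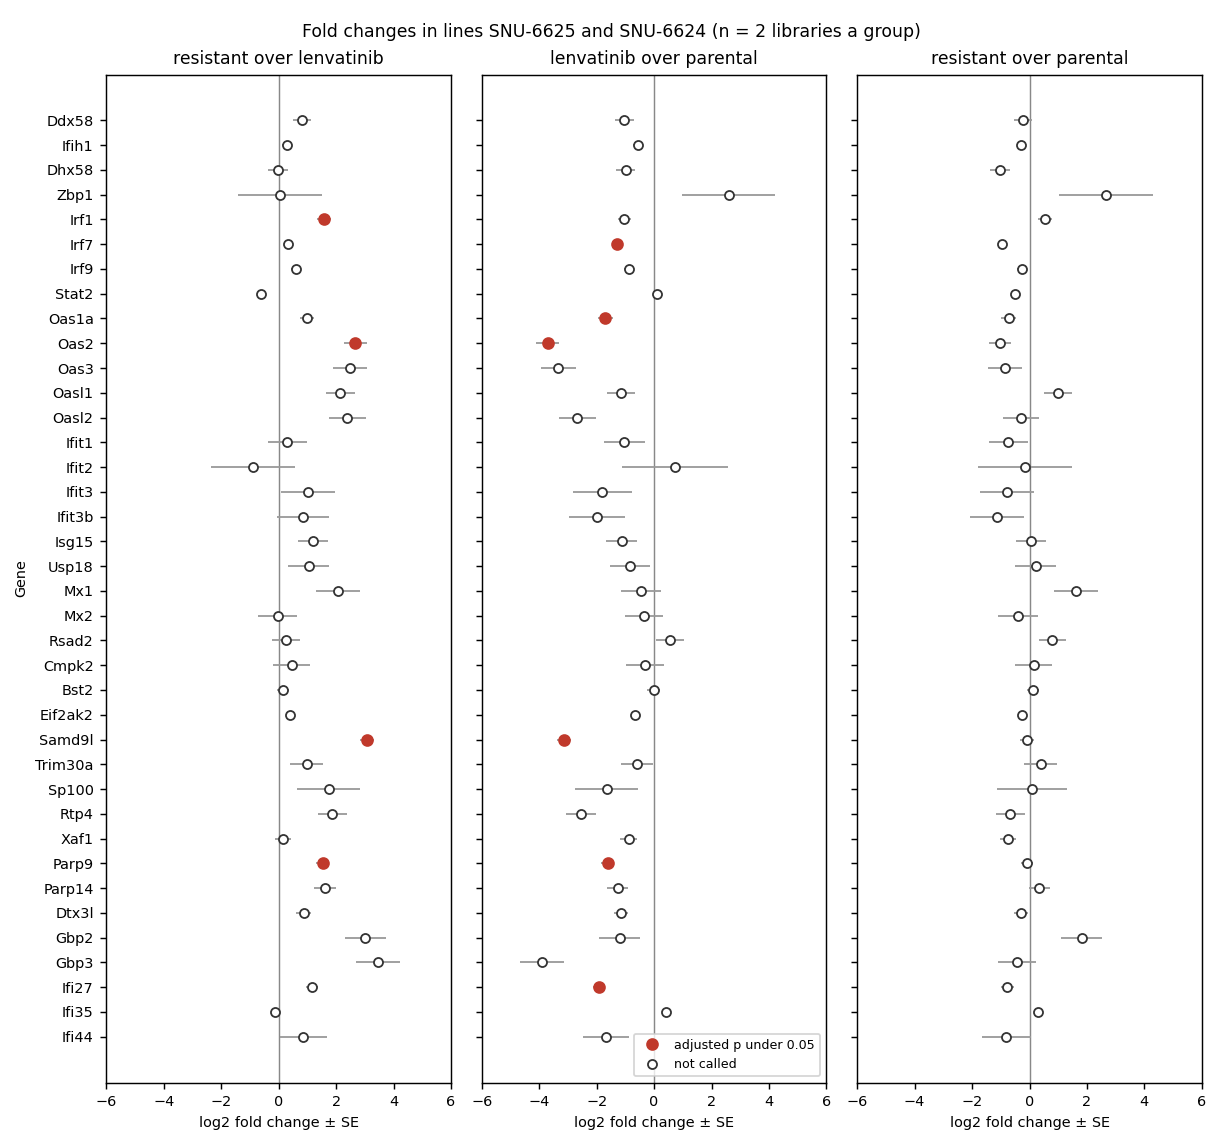
Log2 fold changes (points) ± SE (lines) of the 38 genes in SNU-6625 and SNU-6624 for resistant over lenvatinib, lenvatinib over parental and resistant over parental, n = 2 libraries a group. Filled points are called at an edgeR adjusted p under 0.05: 4 of 38 up in the left panel, 6 down in the middle and 0 in the right. Zbp1 rests on at most 17 counts in any library.

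Resistant cultures had more transcript of 4 of these genes than lenvatinib-treated organoids of the same lines. Of the 38 genes 4 were called up and 0 down by edgeR, against a background of 4.14% up and 2.08% down (6.23% in all): Irf1, Oas2, Samd9l and Parp9. The median log2 fold change was 0.92, against 0.02 over all genes, and 33 of the 38 lay above 0. The median was 0.43 without resistant SNU-6625. At an unadjusted p under 0.05, 17 were up and 1 (Stat2) down, against 16.4% and 14.0% of all genes (30.4% in all). This comparison shares the lenvatinib libraries with the one above. Since the resistant cultures carry the control label, resistance and the absence of the drug label cannot be told apart.

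Irf1 (chromosome 11, 53770014 to 53778374) had 124 and 64.2 CPM in resistant, 34.4 and 26.1 CPM in lenvatinib and 64.5 and 58.7 CPM in parental libraries. Both resistant values lay above both lenvatinib values, at 1.58 with an SE of 0.24 (edgeR adjusted p = 0.0423). Without line as a block the call was lost (edgeR adjusted p = 0.0551; over all alternatives the adjusted p ran from 1.11e-05 to 0.298). The other 3 called genes, whose levels are given above, had log2 fold changes of 3.06 with an SE of 0.25 (edgeR adjusted p = 0.023) for Samd9l, 2.67 with an SE of 0.40 (edgeR adjusted p = 0.0413) for Oas2 and 1.53 with an SE of 0.22 (edgeR adjusted p = 0.0404) for Parp9. Both resistant libraries lay above both lenvatinib libraries for 19 of the 38 genes, against 28.4% of all genes, and below both for Stat2 and Ifi35, against 28.8%.

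Among the genes not called, Oasl1 had 216 and 76.8 CPM in resistant, 31.2 and 30.1 CPM in lenvatinib and 58.7 and 76.4 CPM in parental libraries. Parp14 had 80.7 and 30.7 CPM in resistant, 18.9 and 14.9 CPM in lenvatinib and 40.4 and 40.1 CPM in parental libraries, and Dtx3l had 32.2 and 19.5 CPM in resistant, 15.6 and 12.0 CPM in lenvatinib and 29.3 and 31.8 CPM in parental libraries. All 3 were lowest in the lenvatinib libraries of both lines. Gbp2 had 11.6 and 1.69 CPM in resistant, 1.18 and 0.271 CPM in lenvatinib and 1.37 and 1.08 CPM in parental libraries. Rtp4 had 9.43 and 4.80 CPM in resistant, 1.61 and 2.29 CPM in lenvatinib and 8.90 and 14.1 CPM in parental libraries. The highest Gbp2 value was that of resistant SNU-6625, and Rtp4 was lowest in the lenvatinib libraries. Log2 fold changes of resistant against lenvatinib were 2.15 for Oasl1, 1.60 for Parp14, 0.87 for Dtx3l, 3.02 for Gbp2 and 1.87 for Rtp4. Of 69 further interferon-induced genes 7 were called up and 0 down: Uba7, Isg20, Apol9a, Lgals3bp, Trim14, Nmi and Plac8, with a median over the 69 of 0.77. Of the receptor genes 1 of 6 was called up, the type II receptor subunit gene Ifngr1, with 382 and 194 CPM in resistant, 86.0 and 78.4 CPM in lenvatinib and 167 and 132 CPM in parental libraries. Of 15 sensing genes 2 were called up, Tmem173 and Traf3, with log2 fold changes of 3.65 and 1.20. Epithelial markers were also higher, with 3 of 6 called up (Krt7, Krt8 and Krt19), as were 2 of the 4 tested leukocyte and macrophage markers, whose sums were 178 and 87.3 CPM in resistant against 47.3 and 59.0 CPM in lenvatinib libraries. Their part in the result was not tested. Every fit that left out 1 library had a group with 1 library. Calls from those fits cannot show whether single libraries carried the 4 calls. Over the 15 alternatives, which include those fits, log2 fold changes ran from 1.21 to 1.91 for Irf1 and 2.775 to 3.33 for Samd9l. They ran from 1.99 to 3.25 for Oas2 and 1.275 to 1.76 for Parp9. Without scaling beyond library size, the median over all genes was -0.14 in place of 0.02. Relative to it, the 38 genes had a median of 0.88 in place of 0.90. In that fit 5 of the 38 were called up and 1 down, beside 7.39% of all genes. Of all its calls 47.3% were up, against 66.5% with TMM.

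Against parental organoids, no gene of the 38 was called in the resistant cultures. edgeR called 0 of 17038 genes (0.0%; the smallest adjusted p was 0.247), with 6 of the 38 at an unadjusted p under 0.05, all lower (background 7.84% lower and 8.1% higher, 15.9% in all), and 0 by limma-voom, while DESeq2 called 1, lower. The 6 were Dhx58, Irf7, Stat2, Oas1a, Oas2 and Ifi27, with log2 fold changes of -1.02, -0.96, -0.49, -0.73, -1.04 and -0.77. The median over the 38 was -0.26, against -0.01 over all genes, but it depended on single libraries: -0.57 without resistant SNU-6625, 0.10 without resistant SNU-6624, -0.59 without parental SNU-6625 and 0.30 without parental SNU-6624. Both resistant libraries lay below both parental libraries for 9 genes (background 24.5%) and above both for 4, Oasl1, Mx1, Gbp2 and Ifi35 (background 23.1%).

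The comparison by line, with 1 library a condition, gave unlike values. In SNU-6625, 26 of the 38 genes were above the parental level and 12 below, with a median difference of 0.37 on the log2(CPM + 0.5) scale. In SNU-6624, 7 were above and 30 below, with a median of -0.54. The median over all genes was -0.01 in SNU-6625 and 0.00 in SNU-6624. In SNU-6625, 8 genes were at least 2-fold above parental (background 9.56%) and 0 at least 2-fold below (background 11.8%). In SNU-6624, 0 genes were at least 2-fold above (background 2.53%) and 14 at least 2-fold below (background 4.15%). Genes lower in SNU-6624 and higher in SNU-6625 numbered 18, against 18.0% of all genes, and those with the opposite pattern 0, against 18.6%.

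**Figure D5:**
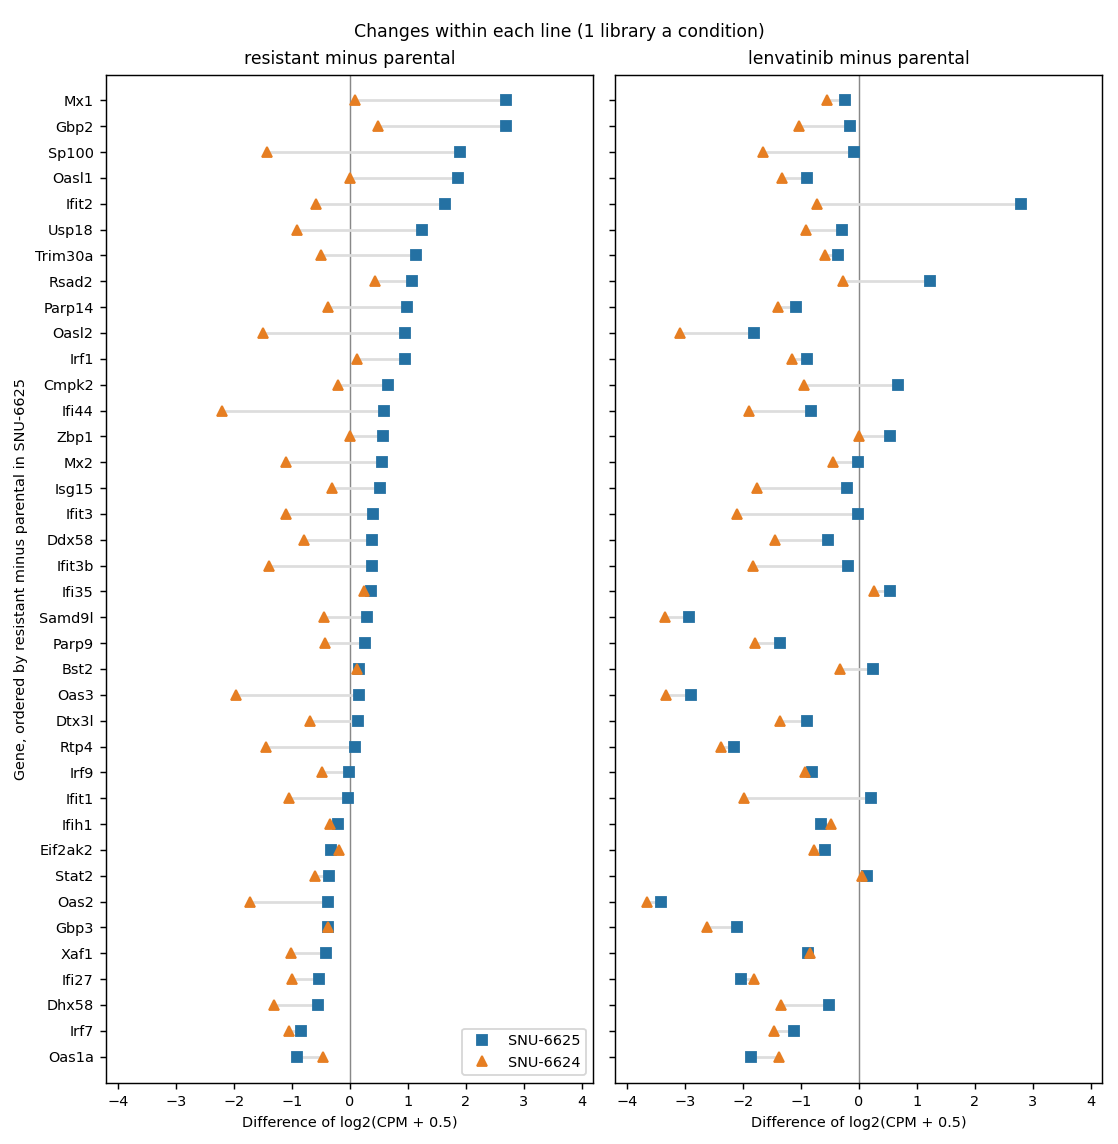
Differences of log2(CPM + 0.5) within SNU-6625 (squares) and SNU-6624 (triangles), resistant minus parental (left) and lenvatinib minus parental (right), 1 library a condition. On the left 26 of 38 squares lie above 0 and 30 of 38 triangles below it, and on the right 30 squares and 35 triangles lie below 0.

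The genes that were higher in resistant SNU-6625 included effectors and GTPases. Mx1 was at 42.2 CPM in resistant against 6.10 CPM in parental SNU-6625, while SNU-6624 had 8.09 CPM in resistant and 7.54 CPM in parental libraries. The Oasl1 level was 216 CPM in resistant and 58.7 CPM in parental SNU-6625. The resistant value was the highest of the 8 libraries, with 213 CPM in parental SNU-6622 next. Sp100 had 6.29 and 0.590 CPM in resistant, 1.20 and 0.441 CPM in lenvatinib and 1.31 and 2.46 CPM in parental libraries. It was the gene of the 38 that was at least 2-fold higher in resistant than parental SNU-6625 and at least 2-fold lower in SNU-6624, a pattern found in 0.182% of all genes. Trim30a had 7.93 and 1.53 CPM in resistant, 2.49 and 1.42 CPM in lenvatinib and 3.33 and 2.37 CPM in parental libraries. Usp18 had 6.63 and 1.30 CPM in resistant, 1.96 and 1.29 CPM in lenvatinib and 2.504 and 2.88 CPM in parental libraries. For both, resistant SNU-6625 was the highest of these 6 libraries.

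In SNU-6624 the resistant library lay furthest below the parental one for Ifi44, which had 4.85 and 1.97 CPM in resistant, 1.52 and 2.59 CPM in lenvatinib and 3.07 and 10.96 CPM in parental libraries. The value in resistant SNU-6624 was below both parental values. Oas3 and Oasl2 were also lower in resistant than in parental SNU-6624, with differences of -1.97 and -1.499 on the log2(CPM + 0.5) scale, and of 0.15 and 0.95 in SNU-6625. Isg15 had 5.80 and 4.76 CPM in resistant, 3.32 and 1.42 CPM in lenvatinib and 3.88 and 6.03 CPM in parental libraries, and its resistant and parental values overlapped. Xaf1 had 8.96 and 6.73 CPM in resistant, 6.41 and 7.61 CPM in lenvatinib and 12.2 and 14.1 CPM in parental libraries, lower in the resistant library of each line. With 1 resistant library per line, none of these differences between lines was tested. Leaving out resistant SNU-6625 gave 5 calls among the 38, all lower, beside 3.26% of all genes. Leaving out resistant SNU-6624 gave 8, 6 higher and 2 lower, beside 32.3% of all genes. The leukocyte and macrophage markers summed to 178 CPM in resistant SNU-6625 and 87.3 CPM in resistant SNU-6624, against 57.3 and 68.2 CPM in their parental libraries, chiefly Cd14 and Cd68, and the other 8 to 2.24 and 1.02 CPM, against 0.666 and 0.774 CPM. Their part in the result was not tested.

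Between the lines, over all 3 conditions, no gene of the 38 was called for SNU-6625 against SNU-6624, and edgeR called 2 of 17038 genes (0.0117%). At an unadjusted p under 0.05, 5 of the 38 were higher and 2 lower in SNU-6625, against 5.17% and 3.2% of all genes (8.38% in all), and DESeq2 called 1 higher and 1 lower. All 3 SNU-6625 libraries lay above all 3 SNU-6624 libraries for 6 genes, Zbp1, Ifit3, Rsad2, Cmpk2, Bst2 and Trim30a, against 4.12% of all genes. Dhx58 lay the other way round, against 2.57%. The median log2 difference of SNU-6625 minus SNU-6624 was 0.44 over the 38 genes and -0.02 over all genes. That median was 0.14 without resistant SNU-6625, 0.16 without resistant SNU-6624 and 0.69 without either parental library.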

How the data were processed

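RNA was extracted with Trizol and an RNeasy kit and sequenced from TruSeq Stranded mRNA libraries, per the labels' protocols. The authors deposited raw counts per gene for 8 libraries, 45777 genes each. The submitters' processing notes name mm10, StringTie 2.1.3b, HISAT2 2.1.0, Trimmomatic 0.38, Bowtie2 2.3.4.1 and FastQC 0.11.7 without their roles. Neither the counting method nor its strand setting is given in the sources used here.

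From the deposited counts, CPM with TMM scaling were computed over 8 libraries. The 6 libraries of SNU-6625 and SNU-6624 were fitted with edgeR 4.0.16 (R 4.3.3; quasi-likelihood F test, group plus line, TMM, filterByExpr, 17038 genes, all 38 genes among them), with Benjamini-Hochberg adjustment over all genes and calls under 0.05. The SE is the absolute log2 fold change over the root of F. The model had 2 residual degrees of freedom, and the estimate of spread shared over all genes added a median of 2.53 prior degrees of freedom. Line is the replicate block, because same-numbered libraries come from the same organoid line; deviations correlated at 0.504 (lenvatinib with parental), 0.288 (resistant with parental) and 0.290 (resistant with lenvatinib). Parental lines had 1 library each and were compared by fold (2-fold and 1 CPM) with no test. Alternatives were DESeq2 1.42.0, limma-voom (limma 3.58.1), other scalings, filters, sample sets and leaving out each library.

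The genes, gene lists and tests were chosen with earlier results of these data known. Values in every library are given for 32 genes: those called in any comparison, the gene of each role group with the highest mean CPM, and those at least 2-fold highest in 1 parental line with at least 20 CPM there. Exon lengths and shared 50-base stretches came from GENCODE M21, promoters from RefSeq (GRCm38.p6). Floors cover counting error only. Some genes of the signalling lists are not reported here.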

Additional observations from a re-analysis of the deposited data

Results flagged for a closer look

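For 25 of the 32 genes given with values in every library, the level in parental SNU-6622 lay far from the other 3 parental lines: its gap to the nearest line, divided by the range of the 4 lines, exceeded Dixon's critical value for 4 samples. Chance flags about 1 in 20 groups not chosen by their values. That rate does not apply here, since 29 of the 32 genes, all 25 among them, were chosen for a level at least 2-fold highest in 1 parental line, so the flags only describe these libraries. In SNU-6622 the sensor and regulator genes were at 65.92 CPM (Dhx58) and 601.93 CPM (Irf7). The OAS genes stood at 110.68 CPM (Oas1a), 502.85 CPM (Oas2), 395.92 CPM (Oas3) and 465.65 CPM (Oasl2). Ifit1 was at 130.91 CPM, Ifit3 at 173.2 CPM and Ifit3b at 96.234 CPM, with Isg15 at 63.579 CPM and Usp18 at 41.303 CPM. Of the effectors, Mx1 was at 85.576 CPM, Rsad2 at 74.062 CPM, Cmpk2 at 33.668 CPM, Bst2 at 99.361 CPM, Trim30a at 120.48 CPM, Sp100 at 107.31 CPM, Rtp4 at 91.883 CPM and Xaf1 at 77.888 CPM. Parp9 was at 134.16 CPM, Parp14 at 234.61 CPM, Dtx3l at 126.08 CPM, Gbp2 at 21.7 CPM, Gbp3 at 72.035 CPM and Ifi44 at 299.1 CPM.

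Sp100 moved in opposite directions in the resistant cultures, by 1.906 in SNU-6625 and -1.44 in SNU-6624 on the log2(CPM + 0.5) scale, resistant minus parental. The difference was not tested, since each line had 1 library a condition.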

How the results depend on the processing

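Counts called among the 38 genes moved with the tool, the filter and the libraries fitted. For lenvatinib against parental (6), DESeq2 called 16 (20.5% of all genes), no filter 1 (0.7%) and a fit of only those groups 22 (48.3%), and leaving out 1 library gave 0 to 22. For resistant against lenvatinib (4), DESeq2 called 15 (21.1%), no filter 1 (1.3%) and a fit of only those groups 1 (1.45%), and leaving out 1 library gave 0 to 22. For resistant against parental (0), DESeq2 called 1 (6.7%), and leaving out 1 library gave 0 to 8. For SNU-6625 against SNU-6624 (0), DESeq2 called 2 (3.17%), and leaving out 1 library gave 0 to 0. Each percentage is the share of all genes tested that the same fit called, and the cause was not tested. Without line as a replicate block, 6 genes (5 of them the same) were called for lenvatinib against parental, beside 6.18% of all genes. For resistant against lenvatinib 3 were called (6.57%), and for resistant against parental 0 (0%). Apart from Oas1a and Irf1, leaving out the block ended no call, and that fit could not be made for the line comparison. Over all genes, lenvatinib against parental had 985 calls, 174 with no filter. Limma-voom, other scalings and a mean of 10 counts kept each count among the 38 within 1.5 times. So did a fit of all 8 libraries, but in it SNU-6622 and SNU-6621 each had a line term of their own. Their libraries then add nothing to the differences between groups, so that fit is not a separate check. The 10 called results passed the threshold in 98 values over 15 alternatives each and missed it in 52, and 0 reversed. The 32 genes past 2-fold in SNU-6622 numbered 25 at 4-fold, 35 at 1.5-fold, and 31 or 32 under the other scalings and minimum levels. Leaving out a library leaves a group with 1 sample, assumed to vary like the others. Where that group is not among those compared, its 1 library has a group term of its own. The spread then comes from the same libraries as in the fit of only those groups. The 15 alternatives are therefore not 15 separate checks. The fit had 2 libraries a group and 2 residual degrees of freedom, and the 4 parental lines had 1 library each.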

Other observations

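The genes in this paragraph lie outside the 38 and were chosen after their values were seen, from the lists of interferon-induced and nucleic acid sensing genes. Aim2, a sensor of DNA in the cytosol, had 120 CPM in resistant, 55.3 CPM in lenvatinib and 70.4 CPM in parental SNU-6625, against 21.5 CPM in resistant, 14.2 CPM in lenvatinib and 18.4 CPM in parental SNU-6624. In the remaining parental lines it had 66.5 CPM in SNU-6622 and 0.407 CPM in SNU-6621. Ifit1bl1, an IFIT family gene, had 89.6 CPM in resistant and 16.4 CPM in parental SNU-6625, against 4.03 CPM in resistant and 8.30 CPM in parental SNU-6624, and 106 CPM in parental SNU-6622. Ikbke, a kinase that activates interferon regulatory factors, had 279 CPM in resistant and 89.1 CPM in parental SNU-6625, and 73.4 CPM in resistant and 72.1 CPM in parental SNU-6624. Ifitm3, which blocks viral entry, was at 18.2 CPM in SNU-6622, 0 CPM in SNU-6625, 1.36 CPM in SNU-6624 and 99.0 CPM in SNU-6621 among the parental lines. Plac8 had 105 and 60.0 CPM in resistant, 11.03 and 3.34 CPM in lenvatinib and 205 and 68.4 CPM in parental libraries of SNU-6625 and SNU-6624.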
